A study of Mus musculus with 25 samples.

Results

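The E2F and DP transcription factors were followed as the 10 genes E2f1 to E2f8, Tfdp1 and Tfdp2. They were taken by symbol from the gene column of the 2 deposited tables. All 10 were present in both, among 15315 genes in the long-term table and 14007 in the short-term table, and all 10 passed the filter on low read numbers.

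The samples were pituitaries of 25 shRb mice, in which doxycycline (dox) in the drinking water switches on a single miR-E shRNA against Rb1 that is linked to GFP at the Col1a1 locus. The authors describe the sequenced tissue of both experiments as pituitary tumors. The shRNA is under the reverse transactivator expressed from the Rosa26 promoter, so it acts in many tissues, and the strain comes from targeted embryonic stem cells with this one shRNA. Every mouse, controls of each comparison included, carried both transgenes and had received dox, and no mouse without dox was analysed here. The labels give neither age nor culture or litter, so the spread below is that between single adult mice. In the long-term experiment, poly(A) libraries came from 3 mice after 6 weeks of dox (6w+dox, all female), 4 mice after 12 weeks of dox (12w+dox, 2 female and 2 male) and 5 mice with 6 weeks of dox followed by 6 weeks without it (12w-res, 3 female and 2 male). In the short-term experiment, rRNA-depleted libraries came from 3 male mice after 16 weeks of dox (16w +dox) and from mice with 16 weeks of dox followed by 1 day (1d -dox, 4 female), 3 days (3d -dox, 3 male) or 5 days (5d -dox, 3 female) off dox. Sex and time off dox therefore cannot be told apart at 1 and 5 days against 16w +dox. Values are FPM, fragment counts scaled to library size with DESeq2 size factors, and levels were not compared between the 2 experiments, whose libraries were made and scaled separately.

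E2F proteins bind a common DNA motif in promoters of DNA replication and cell cycle genes. E2F1 to E2F6 bind DNA as dimers with a DP protein, encoded by Tfdp1 and Tfdp2. E2F1, E2F2 and E2F3 activate transcription until the retinoblastoma protein binds them. E2F4 and E2F5 repress together with the pocket proteins p107 and p130, E2F6 represses without pocket proteins, through Polycomb-type complexes, and the atypical E2F7 and E2F8 repress without either a DP or a pocket protein. Genes of the E2F family are themselves known E2F targets in part, and loss of RB in mice is known for tumors of the pituitary intermediate lobe.

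The shRNA is shown because every comparison rests on switching it on or off. Its target site in Rb1 lies at chr14:73206076-73206096 (mm10/GRCm38, minus strand), inside the coding part of exon 22 of the transcript ENSMUST00000022701.6, and was found in 0 transcripts of the 10 family genes.
shRb5 target site, 5′ to 3′: gaggagtttgattccattata
Promoter windows of 300 bases (RefSeq, GRCm38.p6, 250 bases before to 50 after an annotated start) were found for 8 of the 10 genes, and are printed for the genes in which an E2F motif was found, to set the motif beside how each gene behaved. The motifs searched on both strands were TTTCCCGC, TTTCGCGC, TTTGCCGC and TTTGGCGC, 4 words of 8 bases, and 0 windows of the family held more than 1 match, so no matches overlapped. Capitals mark the match in each window, given on the strand of the gene.
E2f7, chr10:110745189-110745488 (plus strand): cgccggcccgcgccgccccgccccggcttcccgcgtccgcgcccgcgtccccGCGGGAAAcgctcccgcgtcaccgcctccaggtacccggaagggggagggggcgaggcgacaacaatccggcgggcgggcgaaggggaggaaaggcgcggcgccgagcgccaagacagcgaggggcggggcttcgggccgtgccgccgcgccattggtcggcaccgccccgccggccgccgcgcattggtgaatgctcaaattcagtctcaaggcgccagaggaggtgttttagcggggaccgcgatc
Tfdp1, chr8:13338501-13338800 (plus strand): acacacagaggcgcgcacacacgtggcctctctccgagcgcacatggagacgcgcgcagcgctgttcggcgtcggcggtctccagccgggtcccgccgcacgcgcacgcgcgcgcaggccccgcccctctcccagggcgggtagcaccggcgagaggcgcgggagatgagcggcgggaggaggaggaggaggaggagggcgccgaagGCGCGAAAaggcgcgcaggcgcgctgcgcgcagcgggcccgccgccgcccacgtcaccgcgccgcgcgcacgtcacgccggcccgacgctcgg
E2f2, chr4:136172024-136172323 (plus strand): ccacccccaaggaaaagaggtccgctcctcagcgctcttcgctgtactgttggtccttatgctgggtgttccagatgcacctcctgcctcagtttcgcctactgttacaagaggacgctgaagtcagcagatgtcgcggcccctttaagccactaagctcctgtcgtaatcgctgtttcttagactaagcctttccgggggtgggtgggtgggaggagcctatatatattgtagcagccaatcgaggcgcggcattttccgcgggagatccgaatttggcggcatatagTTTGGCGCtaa
E2f3, chr13:29986014-29986313 (minus strand): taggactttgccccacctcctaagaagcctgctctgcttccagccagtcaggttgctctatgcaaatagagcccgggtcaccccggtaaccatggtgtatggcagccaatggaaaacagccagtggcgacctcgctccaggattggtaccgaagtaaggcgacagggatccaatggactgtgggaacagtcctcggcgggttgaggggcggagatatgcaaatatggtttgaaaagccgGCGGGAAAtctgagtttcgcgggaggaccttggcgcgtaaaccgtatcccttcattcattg
In the printed windows the match in E2f7 began 198 bases before the start, that in Tfdp1 43 bases before it, that in E2f3 11 bases before it and that in E2f2 at base 40 after it. The 8 genes had 12 windows in all, and 5 of these held a match. Tfdp1 had another annotated start, with the same match beginning 96 bases before it. E2f2 and E2f3 each had another window without a match. A motif was found in windows of 4 of the 8 genes with a window, E2f2, E2f3, E2f7 and Tfdp1, and not in the windows of E2f1, E2f6, E2f8 and Tfdp2. Among all 32851 windows of the table, 2.26% held 1 of the 4 motifs, and among the 11536 genes of the long-term table with a window 4.45% did. The annotated starts behind the windows of E2f1, E2f8 and Tfdp2 lie inside the RefSeq gene, so these windows do not cover its outermost 5′ end. A match is a run of letters only, and no match says only that these letters are not in the window.

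The knockdown was read from Rb1 itself and, in the short-term table, from GFP. Rb1 was at 1.86, 2.54 and 5.09 FPM in the 6w+dox mice, at 3.45, 2.42, 2.93 and 4.05 FPM in the 12w+dox mice and at 16.1 to 20.3 FPM in the 12w-res mice, so all 5 mice off dox for 6 weeks lay above the other 7. In the short-term mice the linked GFP was at 1025 to 1360 FPM in 16w +dox and at 9.34 to 15.2 FPM in 5d -dox. Rb1 was nevertheless at 3.47 to 4.89 FPM in 16w +dox and 4.92 to 5.38 FPM in 5d -dox (log2 fold change 0.27 ± 0.17 (SE), adjusted p = 0.525). Reads on genes ranged from 19066053 to 28968476 per mouse in the long-term and from 9573101 to 13036900 in the short-term experiment, and Pomc, the hormone gene of melanotrophs and corticotrophs, took 39.1 to 43.2% of them in 12w-res against 12.9 to 23.0% in 12w+dox. The melanotroph factor Pax7 and the factor Tbx19 were present in every group, with group means of 111 to 284 FPM and 218 to 305 FPM in the long-term experiment.

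The first comparison asked what happened to the family when dox was withdrawn for 6 weeks instead of continued. E2f1, E2f7 and E2f8 fell by more than 2-fold in 12w-res against 12w+dox, E2f7 and E2f8 to 1.18 FPM or less in every mouse. Tfdp1, Tfdp2, E2f2 and E2f6 were lower by less than 2-fold, with adjusted p under 0.05, and E2f3, E2f4 and E2f5 did not pass the test. A gene is called here when its adjusted p lies below 0.05 with a change of more than 1 log2 unit either way, tested with limma on log2(FPM + 0.5) over all genes. By this rule 3 of the 10 genes were called lower, beside 5.04% of all 15315 genes, and 0 were called higher, beside 6.24%. Without the minimum fold, 7 of 10 were lower, beside 18.3% of all genes. The groups of mice did not overlap for 6 of the 10 genes, beside 34.5% of all genes.

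Among the activators, E2f1 (chr2:154559400-154569892, minus strand, GRCm38.p6), which drives entry into S phase, was at 36.8, 41.6, 44.0 and 40.8 FPM in the 12w+dox mice and at 6.29, 9.30, 7.33, 11.7 and 11.7 FPM in the 12w-res mice. The highest rescued mouse was thus far below the lowest mouse kept on dox. The group mean was 4.40-fold lower, a log2 fold change of -2.11 ± 0.17 (SE, n = 5 and 4, adjusted p = 6.7e-07). E2f2, an activator best known from blood cells, was at 15.7, 34.8, 33.9 and 28.1 FPM in 12w+dox and at 10.1, 19.4, 13.9, 18.6 and 14.8 FPM in 12w-res. These groups overlapped through the first 12w+dox mouse, and the log2 fold change was -0.83 ± 0.24 (adjusted p = 0.016). Without that mouse E2f2 passed the 2-fold minimum, at -1.08, and without the second or the third 12w+dox mouse its adjusted p was 0.056 or 0.053. E2f3, the remaining activator, was at 8.77 to 14.3 FPM in 12w+dox and 7.64 to 9.84 FPM in 12w-res, a log2 fold change of -0.37 ± 0.18 that did not pass (adjusted p = 0.113).

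The atypical repressors reached the lowest levels per kb. E2f7 (chr10:110745439-110787384, plus strand) was at 8.20, 10.7, 11.1 and 13.7 FPM in the 12w+dox mice and at 0.364, 0.898, 0.273, 0.708 and 0.663 FPM in the 12w-res mice, the latter resting on 6 to 17 reads each. E2f8 (chr7:48866429-48882073, minus strand) was at 12.0, 16.8, 12.2 and 12.96 FPM in 12w+dox and at 0.832, 0.528, 1.18, 1.18 and 0.553 FPM in 12w-res, on 10 to 26 reads each. Neither gene overlapped between the groups. The means were 18.8-fold lower for E2f7 and 15.8-fold lower for E2f8. The fitted log2 fold changes were -3.41 ± 0.21 (adjusted p = 4.3e-08) and -3.39 ± 0.22 (adjusted p = 7.7e-08), and the pseudocount of 0.5 FPM makes them smaller than the ratios of means. On recovered reads, edgeR gave -4.23 for E2f7 and -3.96 for E2f8.

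The repressors E2f4, E2f5 and E2f6 differed by less than 2-fold with the deposited scaling. E2f4, the E2F best known from resting cells, was at 30.8 to 36.3 FPM in 12w+dox and at 27.3 to 36.6 FPM in 12w-res, a log2 fold change of -0.06 with a 95% confidence interval of -0.31 to 0.19. E2f5 gave -0.04 with an interval of -0.40 to 0.33. Both intervals lie inside 2-fold in either direction. With scaling by total recovered reads, described below, E2f4 was at -0.71 (adjusted p = 0.0015) and E2f5 at -0.67 (adjusted p = 0.0061), close to the median of all genes at -0.61. E2f6 was at 46.2, 53.1, 50.9 and 49.4 FPM in 12w+dox and at 32.4, 41.7, 38.3, 36.8 and 41.6 FPM in 12w-res. All 5 rescued mice lay below the 4 kept on dox, with a log2 fold change of -0.39 ± 0.11 (adjusted p = 0.014). With scaling by total recovered reads E2f6 was at -1.04, past 2-fold.

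Of the DP partners, Tfdp1 was at 99.0, 112, 143 and 115 FPM in 12w+dox and at 51.5, 61.9, 60.4, 58.6 and 69.7 FPM in 12w-res. The groups did not overlap, and the mean was 1.94-fold lower, a log2 fold change of -0.95 ± 0.12 (adjusted p = 3.5e-05) just short of the 2-fold minimum. Leaving out the first 12w+dox mouse moved it past, to -1.02, and 5 of the 10 genes were then called. Tfdp2 was at 64.4 to 79.0 FPM in 12w+dox and 48.4 to 58.0 FPM in 12w-res, again without overlap, with a log2 fold change of -0.44 ± 0.09 (adjusted p = 0.0023).

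**Figure D1:**
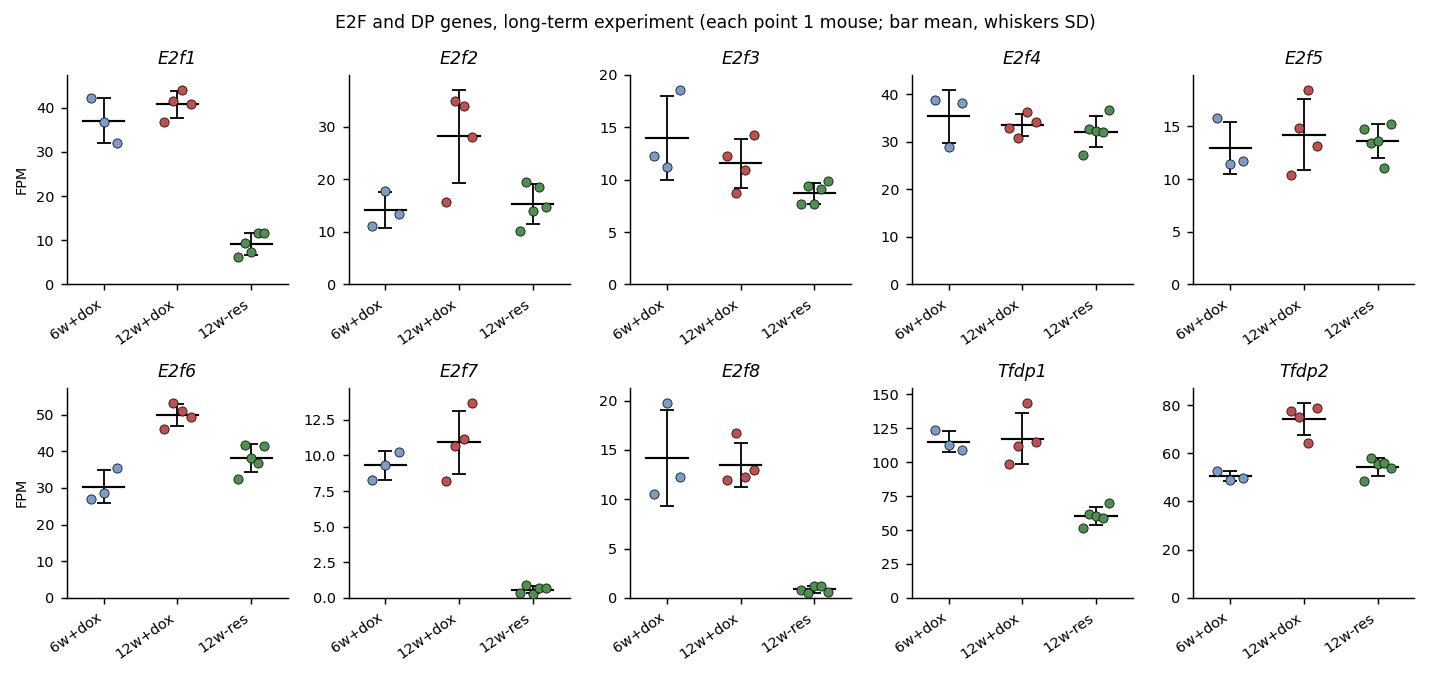
FPM of the 10 genes in each mouse of the long-term experiment, on a linear axis from 0, with 1 panel a gene, 1 point a mouse, a bar for the group mean and whiskers of 1 SD. E2f1, E2f7, E2f8 and Tfdp1 lie lower in all 5 12w-res mice than in any mouse on dox, while E2f4 and E2f5 overlap across the 3 groups.

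Members with one role were also set against each other within each mouse, as log2 ratios of their FPM, in 12 comparisons chosen after seeing the data (6 pairs, each against 12w+dox and 6w+dox). The log2 ratio of E2f1 to E2f3 was 1.84 ± 0.35 (SD, n = 4) in 12w+dox and 0.05 ± 0.26 (n = 5) in 12w-res, a difference of -1.79 in an exact two-sided permutation test over mice (p = 0.00794, the smallest this design allows, adjusted p = 0.036 over the 12). The ratio of E2f1 to E2f2 differed by -1.33 by the same test (exact p = 0.00794, adjusted p = 0.036). E2f1 was thus lower in 12w-res by more than either other activator. The ratio of Tfdp1 to Tfdp2 differed by -0.51 (exact p = 0.0159, adjusted p = 0.036), with an exact p of 0.0571 when any of 4 of the 12w-res mice was left out. The ratio of E2f7 to E2f8 differed by -0.29 (exact p = 0.667) and that of E2f4 to E2f5 by -0.03 (exact p = 0.905), neither past the threshold. In 12w-res the log2 ratio of E2f7 to E2f8 ran from -2.12 to 0.77 between mice, on the few reads named above. Against 6w+dox, E2f1 to E2f2 (-2.14), E2f1 to E2f3 (-1.38) and Tfdp1 to Tfdp2 (-1.04) passed as well (each exact p = 0.0179, the smallest for 5 against 3, adjusted p = 0.036).

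The second comparison set 12w-res against 6w+dox, the point at which dox was withdrawn. It shares the 12w-res mice with the first, so the values stand side by side rather than as separate evidence. E2f1, E2f7 and E2f8 fell here too, to levels below those of every 6w+dox mouse. E2f1 was at 42.3, 36.9 and 32.1 FPM in 6w+dox, E2f7 at 8.27, 9.35 and 10.3 FPM, and E2f8 at 10.5, 19.7 and 12.3 FPM. The log2 fold changes were -1.97 ± 0.19 (adjusted p = 3.6e-06) for E2f1, -3.21 ± 0.23 for E2f7 and -3.42 ± 0.24 for E2f8 (each adjusted p = 2.1e-07). These 3 of 10 genes were called lower, beside 5.82% of all genes, and 0 were called higher, beside 5.81%. Without the minimum fold 5 of 10 were lower, beside 16.8%, and 1 was higher, beside 17% of all genes, and 5 of 10 did not overlap between the groups, beside 32.7%.

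Tfdp1 was at 124, 113 and 109 FPM in 6w+dox, above all 12w-res mice, with a log2 fold change of -0.93 ± 0.13 (adjusted p = 9.5e-05). E2f3 was at 12.2, 11.2 and 18.5 FPM in 6w+dox, also above all 12w-res mice, with -0.62 ± 0.19 (adjusted p = 0.023). With 1 mouse left out, E2f3 ranged from -0.76 to -0.41, and its adjusted p in limma from 0.023 to 0.110. Over the other alternative settings and tests its adjusted p ran from 0.0067 to 0.083, so E2f3 did not pass in all of them. E2f6 was the gene that was higher, at 26.9, 28.6 and 35.6 FPM in 6w+dox, with a log2 fold change of 0.33 ± 0.12 and overlapping groups. Its adjusted p of 0.049 was 0.066 with sex as a covariate, 0.086 in female mice only and 0.127 with the replicate number as a block. With scaling by total recovered reads the value was 0.0022 (adjusted p = 0.995), and it missed the threshold without any one of 12w-res replicates 2 to 5 or 6w+dox replicates 1 and 2 (adjusted p = 0.072 to 0.176). E2f2 (0.11), Tfdp2 (0.11), E2f5 (0.08) and E2f4 (-0.13) did not pass.

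The third comparison, 12w+dox against 6w+dox, followed the family while the shRNA stayed on. No member was called: 0 of 10 higher beside 3.15% of all genes, and 0 of 10 lower beside 4.04%, where 3 of 10 had an adjusted p under 0.05 and were higher, beside 10.4% of all genes. E2f6 was higher by 0.72 ± 0.13 on the log2 scale (adjusted p = 0.0020) and Tfdp2 by 0.55 ± 0.11 (adjusted p = 0.0037). These were the 2 of 10 genes whose groups did not overlap, beside 25.2% of all genes. Tfdp2 was at 52.7, 48.9 and 49.7 FPM in 6w+dox and 77.7, 75.2, 64.4 and 79.0 FPM in 12w+dox. E2f2, at 11.1, 17.9 and 13.4 FPM in 6w+dox, was higher by 0.93 ± 0.28 (adjusted p = 0.027), with an adjusted p of 0.068 with sex as a covariate and 0.181 in female mice only. E2f2, E2f6 and Tfdp2, which passed here, were lower in 12w-res against 12w+dox but not against 6w+dox. The genes that were lower in both 12w-res comparisons did not pass here. E2f1 gave 0.14 (95% confidence interval -0.28 to 0.56), E2f7 0.20 (-0.31 to 0.72), E2f8 -0.03 (-0.58 to 0.51) and Tfdp1 0.02 (-0.27 to 0.30).

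E2f2, E2f6 and Tfdp2 were thus higher in 12w+dox than in either other long-term group, with adjusted p under 0.05 in limma. The means of E2f1, E2f5, E2f7 and Tfdp1 were also highest in 12w+dox, but these genes did not pass against 6w+dox. Rbl2, the gene of the pocket protein p130, was also higher in 12w+dox than in 6w+dox (log2 fold change 0.72, adjusted p = 0.0057). Markers of other cells moved in this comparison. All 4 neural lobe markers were called lower in 12w+dox, their summed level going from 44.5 to 130 FPM in 6w+dox to 4.05 to 13.4 FPM, and 5 of 8 markers of other hormone cells were called lower, from a sum of 57306 to 92654 FPM to one of 1177 to 12622 FPM. Of 5 stem and folliculostellate markers 3 were called lower, of 8 fibroblast and pericyte markers 3, and of 5 endothelial markers 2. Their part in the values of E2f2, E2f6 and Tfdp2 was not tested.

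In bulk tissue, fewer cells expressing a gene and less RNA per cell cannot be told apart. In 12w-res against 12w+dox, all 8 fibroblast and pericyte markers were called higher, with a summed level of 913 to 1512 FPM against 166 to 511 FPM, and 4 of 5 endothelial markers, with 182 to 246 FPM against 55.9 to 118 FPM. Of 7 macrophage and leukocyte markers tested 0 were called (summed level 124 to 177 FPM against 78.8 to 106 FPM), and 2 of 8 markers of other hormone cells were called higher, Prl and Gh. Of 6 melanotroph and corticotroph markers 2 were called higher, of 5 stem and folliculostellate markers 2, and of 4 neural lobe markers 0. None of these markers was at 0 in every mouse of a group. Their part in the fall of E2f1, E2f7 and E2f8 was not tested. Against 6w+dox, 4 of 8 fibroblast and pericyte markers and 0 of 5 endothelial markers were called higher. All 4 neural lobe markers were called lower there, with a summed level of 6.29 to 10.8 FPM against 44.5 to 130 FPM, as were 3 of 8 markers of other hormone cells (16675 to 32341 FPM against 57306 to 92654 FPM) and 1 of 5 stem and folliculostellate markers. Of the 6 melanotroph and corticotroph markers 2 were called higher and 1 lower. The part of these markers in the values against 6w+dox was not tested either. Sex was mixed in both 12-week groups. In female mice only, the log2 fold changes against 12w+dox were -1.91 for E2f1, -3.26 for E2f7 and -3.35 for E2f8, and in male mice -2.39, -3.54 and -3.48. E2f2 (adjusted p = 0.266) and E2f6 (adjusted p = 0.170) did not pass in female mice only. No member passed a test of the difference between the sexes (0 of 10, with 0 at an unadjusted p under 0.05, beside 0.0326% of all genes called).

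Scaling by total recovered reads, in which Pomc weighs heavily, moved the median of all genes to -0.61 in 12w-res against 12w+dox, to -0.33 against 6w+dox and to 0.29 in 12w+dox against 6w+dox. With that scaling 8 of 10 members were called lower against 12w+dox, with E2f1 at -2.75 and Tfdp1 at -1.60.

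**Figure D2:**
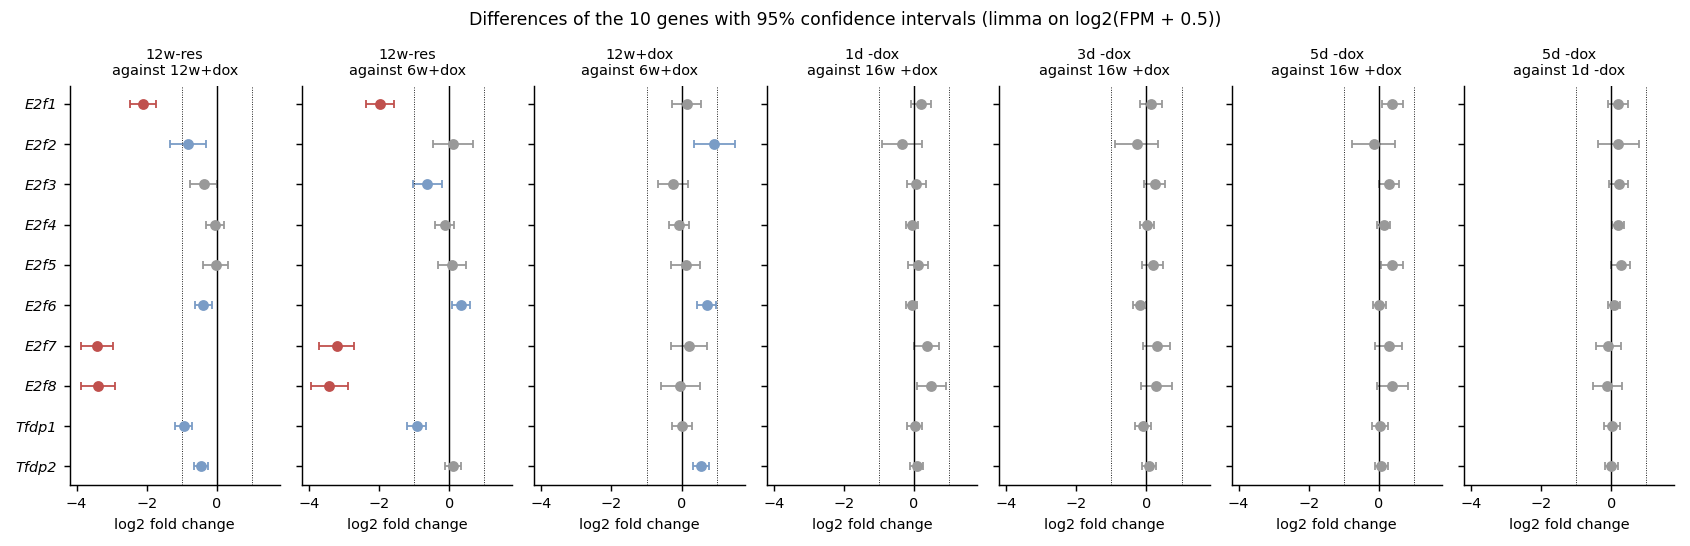
Log2 fold change of each of the 10 genes (x axis, log2(FPM + 0.5) scale, with 95% confidence intervals) in the 7 comparisons, red where called, blue where the adjusted p was under 0.05 below the 2-fold minimum and grey otherwise; dotted lines mark 2-fold. E2f7 and E2f8 lie between -3.42 and -3.21 in both 12w-res comparisons and no gene is coloured in the 4 short-term comparisons.

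Levels were compared between members as FPM per kb of the longest annotated transcript, a description without a test. By this measure Tfdp1 was the most abundant in all 7 groups and E2f4 was the next in all 7. In 12w+dox, Tfdp1 was at 42.1 ± 6.7 (SD, n = 4) FPM per kb, followed by E2f4 (16.8 ± 1.2), E2f6 (16.5 ± 0.96), E2f1 (14.8 ± 1.1), Tfdp2 (10.1 ± 0.91), E2f5 (7.99 ± 1.9), E2f2 (5.94 ± 1.9), E2f8 (3.65 ± 0.60), E2f3 (2.27 ± 0.46) and E2f7 (1.99 ± 0.41). The ranges of these neighbours overlapped except between Tfdp1 and E2f4, between E2f1 and Tfdp2 and between E2f8 and E2f3. In 12w-res the order was Tfdp1 (21.7 ± 2.3, n = 5), E2f4 (16.1 ± 1.7), E2f6 (12.6 ± 1.3), E2f5 (7.67 ± 0.90), Tfdp2 (7.40 ± 0.50), E2f1 (3.37 ± 0.90), E2f2 (3.24 ± 0.80), E2f3 (1.71 ± 0.20), E2f8 (0.232 ± 0.087) and E2f7 (0.106 ± 0.047). Here the overlapping neighbours were E2f4 with E2f6, E2f5 with Tfdp2, E2f1 with E2f2, and E2f8 with E2f7. E2f1 thus ranked 4th in 12w+dox and 6th in 12w-res. The order depends on the length used. Per coding length E2f6 exceeded E2f4, with 18.9% against 8.44% of the summed family level in 12w+dox and 23.2% against 12.9% in 12w-res. Tfdp2 also exceeded E2f4, at 17.3% in 12w+dox and 20.2% in 12w-res. The share of E2f1 was 9.77% in 12w+dox, above E2f4, and 3.53% in 12w-res, below E2f2 (5.68%).

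The makeup of the E2F pool shifted with the same genes. Of the summed FPM per kb of the 8 E2f genes, the activators made up 32.8 ± 1.2% (SD, n = 4) in 12w+dox, 32.1 ± 2.2% (n = 3) in 6w+dox and 18.3 ± 2.8% (n = 5) in 12w-res. The atypical repressors made up 8.07 ± 0.88%, 9.34 ± 2.8% and 0.756 ± 0.18% in the same order. E2f4, E2f5 and E2f6 together made up 59.1 ± 1.7%, 58.5 ± 4.4% and 80.9 ± 2.9%, so the pool in 12w-res consisted mostly of these 3 repressors, whose own FPM had not risen against 12w+dox. The ratio of summed DP to summed E2f transcripts was 0.745 ± 0.038 in 12w+dox, 0.805 ± 0.045 in 6w+dox and 0.645 ± 0.011 in 12w-res. In the short-term groups the activators held 22.3 to 23.4% and the atypical repressors 12.5 to 16.8% of the E2f pool by group mean.

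**Figure D3:**
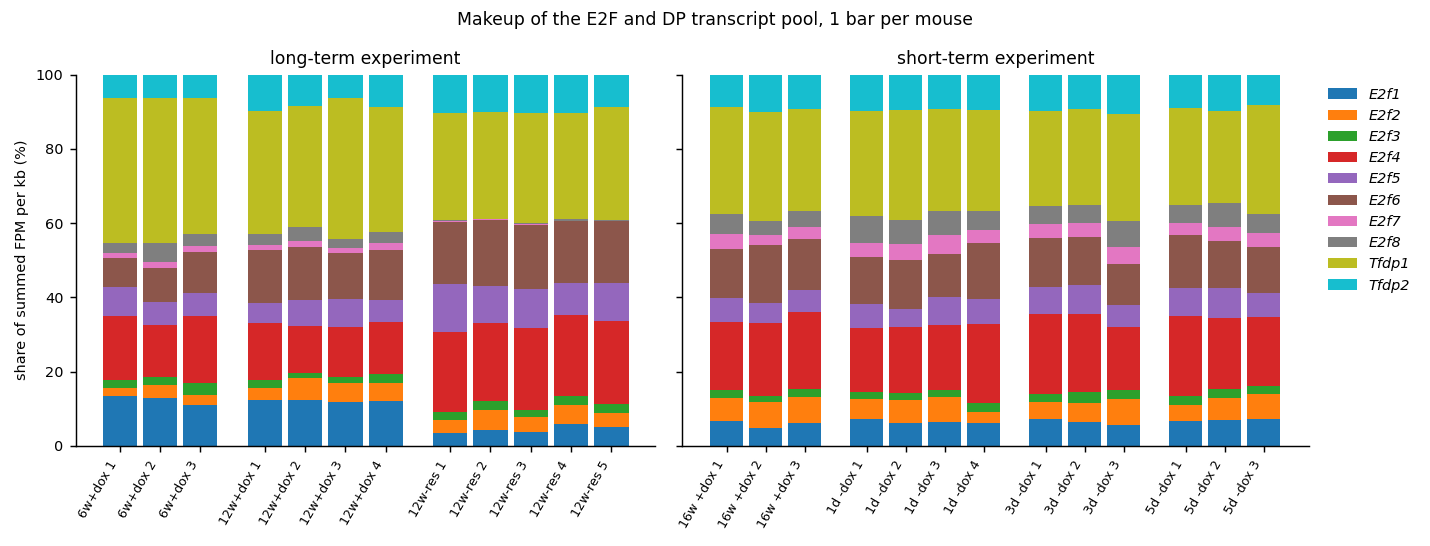
Share of each gene in the summed FPM per kb of the 10 genes (y axis, percent), 1 stacked bar per mouse, for the long-term (left) and short-term (right) experiments. In the 5 12w-res bars E2f7 and E2f8 together hold 0.328 to 0.611% and E2f1 a mean of 4.50%, against a mean of 12.1% for E2f1 in 12w+dox.

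The genes that E2F proteins act on were counted from a list of 48 replication, nucleotide and checkpoint genes. In 12w-res against 12w+dox, 44 of 48 were called lower and 0 higher, with a median log2 fold change of -2.32, beside a median of 0.00 over all genes. Uhrf1 (-3.67), which keeps DNA methylation at the replication fork, Pole (-3.48), a DNA polymerase, Cdk1 (-3.46), the mitotic kinase, and Ccna2 (-3.45), its cyclin, had the largest changes. Orc1 (-0.78), Cdc25a (-0.01), Rfc3 (-0.97) and Apaf1 (-0.75) were not called. Against 6w+dox 42 of 48 were called lower, with a median of -2.06, and in 12w+dox against 6w+dox 1 of 48 was called, Ccne2, which was higher at 1.17. E2f7 and E2f8 thus lay below the median of this list, near its lowest genes, and E2f1 close to it. All 7 proliferation markers were called lower as well, with a median of -3.22. Top2a was at -3.98 and Mki67 at -3.34.

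Partners and regulators of the family moved less evenly. Among pocket proteins in 12w-res against 12w+dox, Rb1 rose by 2.35 on the log2 scale, Rbl1, the gene of p107, fell by 1.64, and Rbl2 gave -0.10. Of 9 genes listed for the DREAM and MuvB complexes of cell cycle promoters, not all of which act with E2F4, 4 were called lower: Foxm1 (-2.77), Mybl2 (-1.80), Mybl1 (-1.60) and Lin9 (-1.43). Of 12 genes of the E2F6 complexes, 0 were called (limma, 0 higher and 9 lower at an unadjusted p under 0.05), with a median of -0.38. Of 12 genes of E2F turnover and modification, Cdc20 (-3.02), Ccnf (-2.38), the cyclin F that targets E2F proteins for degradation, and Skp2 (-1.41) were called lower. Of 15 cyclins, kinases and inhibitors that act on pocket proteins, 6 were called lower, led by Cdk2 (-2.44) and Ccne2 (-2.15), and 1 higher, Ccnd2 (1.46). Ccne1, Ccne2, Cdk2 and Cdkn2c of this list also stand in the list of E2F target genes counted above.

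**Figure D4:**
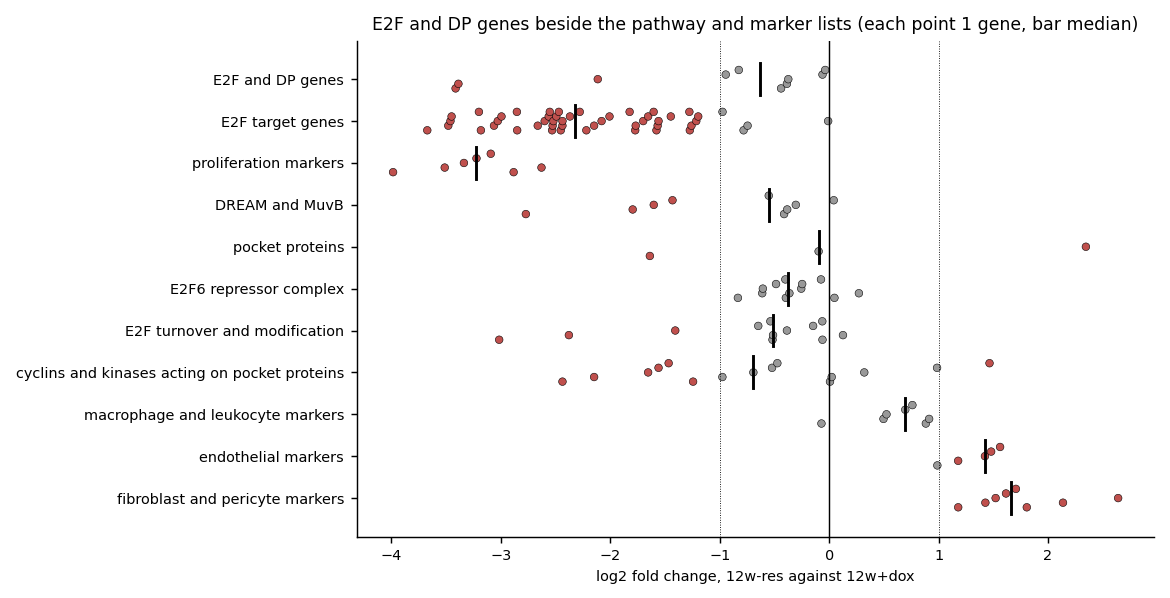
Log2 fold change in 12w-res against 12w+dox (x axis) of the 10 genes and of the pathway and marker lists, 1 point per gene, red where called and grey otherwise, with a bar at the median. The E2F and DP genes spread from -3.41 to -0.04 around a median of -0.63, the E2F target genes lie around -2.32, and the 8 fibroblast and pericyte markers all lie above 1.

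For each called member the 3 genes most like it over the 12 long-term mice were found by the root mean square difference of log2(FPM + 0.5) after subtracting each gene's mean, among 13877 other genes with a mean of at least 1 FPM. For E2f1 they were Atad2 (0.25), Ncapd2 (0.25) and Mtfr2 (0.26). For E2f7 they were Kif11 (0.21), Iqgap3 (0.26) and Kif18b (0.27), and for E2f8 Bub1b (0.26), Ncaph (0.27) and Aurkb (0.29). These are small beside the spread of the members themselves over the mice, 1.04, 1.66 and 1.70 for E2f1, E2f7 and E2f8. Of the family, E2f8 ranked 56th for E2f7 (0.44) and E2f1 ranked 156th (0.67), while E2f4 ranked 4480th for E2f1 and 5165th for E2f7. The family gene most like E2f1 was Tfdp1 (rank 319, 0.58), ahead of E2f7 (rank 521, 0.67) and E2f8 (rank 1072, 0.78). Group means were not removed, so these distances include the difference of 12w-res from the groups on dox, by which the members were called.

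The short-term comparisons asked whether the family had already moved 1, 3 or 5 days after dox withdrawal. No member was called at any time: 0 of 10 at 1 day beside 0.043% of all 13958 genes tested, 0 of 10 at 3 days beside 0.129%, 0 of 10 at 5 days beside 0.193% and 0 of 10 in 5d -dox against 1d -dox beside 0.0143%. In limma 1, 1, 2 and 1 members had an unadjusted p under 0.05 in these 4 comparisons, and edgeR and DESeq2 on recovered reads also gave 0 members with an adjusted p under 0.05. The lowest adjusted p of a member was 0.253 in limma, 0.264 in edgeR and 0.203 in DESeq2.

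E2f1 was at 6.59, 4.38 and 5.95 FPM in the 16w +dox mice, at 7.37, 6.66, 6.28 and 5.45 FPM at 1 day, at 6.54, 6.22 and 5.62 FPM at 3 days and at 6.81, 7.40 and 8.05 FPM at 5 days. The 5d -dox mice all lay above the 16w +dox mice, with a log2 fold change of 0.38 (95% confidence interval 0.08 to 0.69, adjusted p = 0.263). E2f7 was at 7.59, 4.73 and 6.48 FPM in 16w +dox and at 6.50, 8.02 and 8.33 FPM at 5 days, a log2 fold change of 0.28 (-0.11 to 0.67). E2f8 was at 7.16, 4.57 and 5.69 FPM in 16w +dox and at 9.51, 9.50, 8.70 and 5.92 FPM at 1 day, a log2 fold change of 0.50 (0.08 to 0.91, adjusted p = 0.290). None of these passed after adjustment over all genes, and none of the 3 intervals reached a 2-fold difference. The second 16w +dox mouse was the lowest of its group for all 3 genes. Without it E2f1 at 5 days was at 0.23, E2f7 at 0.10 and E2f8 at 1 day at 0.35.

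Groups did not overlap for 0 of 10 genes at 1 day (beside 11.2% of all genes), for 1 at 3 days (E2f6, lower, beside 21.6%), for 3 at 5 days (E2f1, E2f3 and E2f5, higher, beside 19.3%) and for 2 in 5d -dox against 1d -dox (E2f3 and E2f4, higher, beside 7.8%). E2f6 was at 14.4, 15.3 and 14.8 FPM in 16w +dox and at 13.2, 13.6 and 11.9 FPM at 3 days, where both groups were male, a log2 fold change of -0.20 ± 0.08 (adjusted p = 0.253). E2f5 was at 4.17, 3.15 and 3.83 FPM in 16w +dox and at 4.88, 5.45 and 4.53 FPM at 5 days (0.38 ± 0.14, adjusted p = 0.271). E2f4 in 5d -dox against 1d -dox, both female, gave 0.19 ± 0.08 (adjusted p = 0.729). Tfdp1 stayed between 23.8 and 32.7 FPM and Tfdp2 between 22.6 and 28.5 FPM in all 13 mice. E2f2 ranged from 4.40 to 11.6 FPM within the 1d -dox mice alone.

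**Figure D5:**
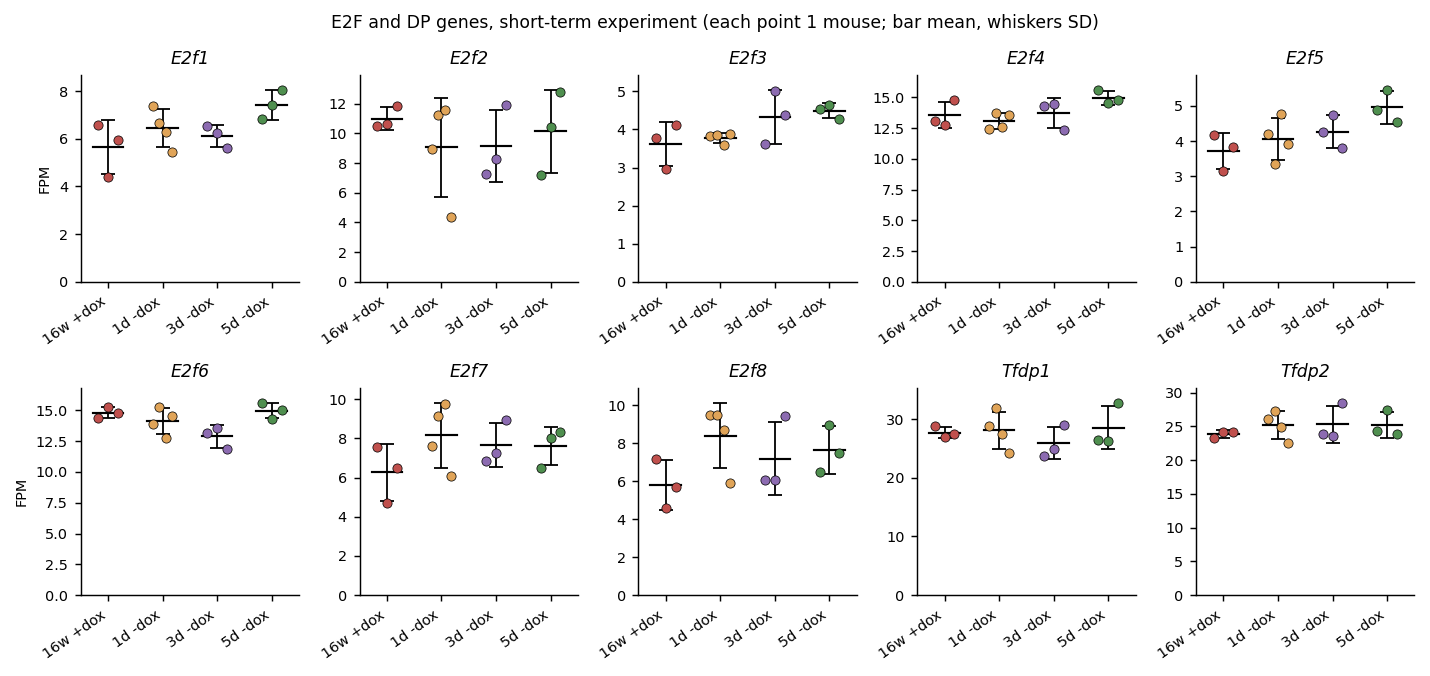
FPM of the 10 genes in each mouse of the short-term experiment, on a linear axis from 0, with 1 panel a gene, 1 point a mouse, a bar for the group mean and whiskers of 1 SD. E2f1 lies between 6.81 and 8.05 FPM at 5 days against 4.38 to 6.59 FPM in 16w +dox, a difference that was not called, and the other groups overlap for most genes.

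Of the E2F target list, 47 of 48 were tested in the short-term table and 0 were called at any time (limma, with 19 at an unadjusted p under 0.05 at 1 day, 8 at 3 days and 4 at 5 days, all higher). All 47 were above 0 at 1 day (median log2 fold change 0.28) and at 5 days (0.14), and 39 of 47 at 3 days (0.12), beside medians over all genes of 0.00, 0.00 and 0.01. Pcna gave 0.36 at 1 day and Mcm3 gave 0.35, neither called. These 3 comparisons share the 16w +dox mice. The summed level of the list was at 624 to 740 FPM in 16w +dox. It overlapped with this at each time, at 685 to 894 FPM at 1 day, 703 to 799 FPM at 3 days and 718 to 792 FPM at 5 days. Fibroblast, pericyte and endothelial markers were on the opposite side in the 2 groups of female mice. Summed fibroblast and pericyte markers were at 102 to 136 FPM in 16w +dox. They were at 48.7 to 69.1 FPM at 1 day and 44.9 to 78.7 FPM at 5 days. Endothelial markers were at 22.2 to 40.2 FPM in 16w +dox, and at 12.4 to 16.3 FPM and 10.1 to 14.0 FPM at these times. Of these lists, 0 of 8 and 1 of 5 were called lower at 1 day and 1 of 8 and 1 of 5 at 5 days. At 3 days, with male mice in both groups, they were at 76.3 to 154 FPM and 21.6 to 39.2 FPM. Markers of other hormone cells summed to 21.8 to 103 FPM at 1 day, 163 to 865 FPM at 3 days and 24.1 to 100.4 FPM at 5 days against 193 to 206 FPM in 16w +dox, with 1 of 8 called lower at 1 day, 1 higher at 3 days and 1 lower at 5 days. Melanotroph and corticotroph markers summed to 12471 to 28944 FPM at 3 days, below the 35281 to 38081 FPM of 16w +dox, and to 40253 to 57881 FPM at 5 days, above it, with 0 of 6 called at any time. Their part in the small values of the family was not tested.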

How the data were processed

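Pituitary RNA of 25 mice was sequenced as paired-end 150 base reads. The authors mapped reads to mm10 with STAR 2.5.1b, counted them on RefSeq genes, dropped genes that did not reach 10 reads in over 50% of the mice of any condition, and deposited FPM, a signal already scaled by DESeq2 size factors. The counting tool and use of strand are not given in the sources used here. Of the deposited FPM values, 100% were whole multiples of 1 read of their library within 0.1 read, and whole reads were recovered from them. In the short-term data, 4 lines without a gene held 68.8 to 75.0% of the reads per mouse and were left out.

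Samples were grouped by the treatment label. Values were tested with limma 3.58.1 (R 4.3.3) on log2(FPM + 0.5), all groups of one experiment in one fit, with Benjamini-Hochberg adjustment over all genes passing the same filter. Calls needed an adjusted p below 0.05 with a change of more than 1 log2 unit. Alternatives were edgeR 4.0.16 and DESeq2 1.42.0 on recovered reads, other scaling, pseudocounts and filters, sex, and leaving out each mouse. Of the programs, limma, edgeR and DESeq2 were tested on simulated reads, in 1 comparison of each experiment. Genome positions and lengths came from GENCODE vM21 and RefSeq (GRCm38.p6). E2f5, E2f7 and E2f8 each share exonic bases with a gene on the opposite strand, so reads there cannot be told apart without strand. Named were all members, Rb1 and GFP, up to 4 called genes with the largest change of each list, and the 3 genes most like each called member. Genes of a list that were not called, Rbl2, Pcna, Mcm3, Pax7, Tbx19 and Pomc were named after their values were seen. The members and lists were chosen with earlier results of these data known. P-values measure the spread between these mice.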

Additional observations from a re-analysis of the deposited data

How the results depend on the processing

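The calls of E2f1, E2f7 and E2f8 kept their direction and passed in 121 of 121 alternatives run. The number of members called in 12w-res against 12w+dox, 3, was 8 with scaling by totals and 7 without a minimum fold, and 3 to 5 with 1 mouse left out (5 without 12w+dox replicate 1). Against 6w+dox it was 6 without a minimum fold and 3 to 3 with 1 mouse left out. In 12w+dox against 6w+dox it was 2 with totals, 3 without a minimum fold, and 0 to 1 with 1 mouse left out (1 without 12w+dox replicate 1 or 6w+dox replicate 2). Values that changed sign were all of members not called, and the cause was not tested. In female mice only, 12w-res against 12w+dox gave 0.077 for E2f4 and 0.081 for E2f5, and 12w+dox against 6w+dox gave -0.040 for E2f5, 0.050 for E2f8 and -0.13 for Tfdp1. With sex as a covariate that comparison gave 0.086 for E2f8 and -0.0070 for Tfdp1. With totals, 12w-res against 6w+dox gave -0.22 for E2f2, -0.24 for E2f5 and -0.22 for Tfdp2, 12w+dox against 6w+dox 0.063 for E2f3, 0.26 for E2f4 and 0.28 for E2f8, 3d -dox 0.048 for Tfdp1, 5d -dox -0.063 for E2f6, -0.044 for Tfdp1 and -0.0046 for Tfdp2, and 5d -dox against 1d -dox -0.059 for Tfdp1. Same-numbered mice did not pair (correlation of deviations -0.165 to 0.237 over 10 long-term and -0.208 to 0.168 over 18 short-term pairs), and with the replicate number as a block 3, 3 and 0 members were called in the long-term comparisons and 0 in the 4 short-term ones, with E2f2 at -0.089 and Tfdp1 at -0.047 in 5d -dox against 1d -dox. With 1 mouse left out, 12w-res against 12w+dox ranged from -0.17 to 0.095 for E2f5, and against 6w+dox from -0.048 to 0.28 for E2f2 and -0.0056 to 0.22 for E2f5. In 12w+dox against 6w+dox the ranges were -0.20 to 0.0081 for E2f4, -0.018 to 0.26 for E2f5, -0.21 to 0.22 for E2f8 and -0.084 to 0.094 for Tfdp1. At 1 day they were -0.051 to 0.15 for E2f3, -0.090 to 0.011 for E2f4 and -0.048 to 0.081 for Tfdp1, at 3 days -0.031 to 0.24 for E2f1, -0.024 to 0.087 for E2f4 and -0.0065 to 0.12 for Tfdp2, and at 5 days -0.32 to 0.069 for E2f2, -0.013 to 0.044 for E2f6 and -0.067 to 0.088 for Tfdp1. In 5d -dox against 1d -dox they were -0.089 to 0.42 for E2f2, -0.20 to 0.024 for E2f7, -0.081 to 0.082 for Tfdp1 and -0.061 to 0.039 for Tfdp2. The ratio of E2f4 to E2f5 against 12w+dox ranged from -0.12 to 0.10 and that of E2f7 to E2f8 from -0.63 to 0.089, or -0.38 to 0.34 against 6w+dox. Over all genes, DESeq2 called 29 higher and 84 lower at 1 day, 72 and 32 at 3 days and 35 and 105 at 5 days, where limma called 1 and 5, 11 and 7, and 12 and 15. A filter of at least 10 reads in every mouse removed E2f7 from the long-term tests, since it had 6 to 17 reads in 12w-res. Depth limits E2f7 and E2f8 there, and no other member. Coding length in place of the longest transcript moved 69 of 70 shares of the summed family level by more than 1 SD.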
